A study of Arabidopsis thaliana with 27 samples.

Results

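The 6 genes described here are tied to phosphate supply and were followed through the formation of tracheary elements, the water-conducting cells of xylem, in cultured cells of Arabidopsis thaliana. They were AT5G20790, AT1G13750, AT1G23140, AT1G08310, AT5G09570 and PAP20. They were picked by name with their levels in these samples known, so their levels are a description and carry no test. Each has 1 probe set of its own among the 22743 tested, and all 6 were kept, since no filter on low signal was applied.

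The cells were a habituated suspension culture of ecotype Col-0, and all 27 samples had the same background. At 7 days of age they were moved into fresh MS medium with 3% sucrose, 6 µg/ml NAA (an auxin), 1 µg/ml BAP (a cytokinin) and 4 µM epibrassinolide (a brassinosteroid). Cells of 3 time-courses, A, B and C, were harvested for RNA at 9 times spaced 12 h apart, the earliest 0 h and the last 96 h. Each sample had 1 single-colour array, so n = 3 at each time. The labels call the cells dividing at 0 h, no longer dividing and beginning to expand at 12 h and 24 h, and differentiating ahead of wall deposition at 36 h and 48 h. Wall deposition runs from 60 h to 84 h in the labels and is complete at 96 h. Transfers without hormones and the phosphate content of medium or cells were not analysed here, so new medium and hormones cannot be told apart.

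When phosphate is scarce, plant cells release the transcription factor PHR1 from inhibition by SPX proteins, and PHR1 then raises a broad set of target genes. These genes encode phosphate transporters, secreted and vacuolar acid phosphatases that free phosphate from organic compounds, and enzymes that replace membrane phospholipids with other lipids. Fresh MS medium supplies phosphate, which cultured plant cells take up quickly and store in the vacuole. AT1G13750 and PAP20 belong to the purple acid phosphatases, metal-containing enzymes that cleave phosphate esters. AT5G20790 encodes a membrane protein of unknown function whose transcript is known to rise on phosphate starvation in Arabidopsis. AT1G23140 encodes a small protein with a C2 domain, which binds lipids in the presence of calcium, and AT1G08310 an alpha/beta hydrolase. AT5G09570 encodes a mitochondrial protein with paired cysteine motifs and also responds to disturbed mitochondria. Sequences of these genes were not used here.

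Signals are log2 values after RMA, from 0 to 12.3, and array medians lay between 0.85 and 1.00. Low signals stop at 0, so a difference that starts or ends near the floor is understated, and levels of different probe sets cannot be ranked against each other. The cultures are bulk samples, in which fewer cells of a kind and less RNA per cell cannot be told apart. The 3′ minus 5′ difference of the GAPDH control, which grows as RNA loses its 5′ part, was 2.99 to 4.38 on the B arrays of 0 h and of each time from 60 h on, 5 in number. It was 0.35 to 1.89 on the other 22. Of 24 tracheary element and secondary wall markers 9 were measured, and 8 of the 9 had risen over 0 h at 60 h, where 5.36% of all probe sets were called up. At 72 h, 84 h and 96 h 5, 4 and 2 of the 9 were called up, with 2.35%, 2.17% and 1.49% of all probe sets.

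AT5G20790, the membrane protein gene, was far lower at 12 h than at 0 h. Its log2 signal in A, B and C was 0.67, 1.18 and 1.67 at 12 h, against 8.66, 8.80 and 9.27 at 0 h. The time means were 2.41 ± 0.39 at 24 h, 3.35 ± 0.08 at 36 h and 4.60 ± 0.11 at 48 h (SD, n = 3). They were 3.38 ± 0.94 at 60 h, 6.26 ± 0.13 at 72 h and 7.03 ± 0.16 at 84 h. The 3 courses stayed close together at most times and parted at 60 h and 96 h. At 60 h the signal was 4.45 in A, 2.69 in B and 3.01 in C, each below the 48 h value of its own course. At 96 h it was 5.43 in A, 8.21 in B and 8.51 in C, so that no course was back at its 0 h value. The fitted difference of 12 h from 0 h was -7.74 ± 0.53 (SE), a signal 213-fold lower, and 96 h lay 6.21 ± 0.53 above 12 h. Fitted SEs here and below rest on 1 spread per gene estimated over all 9 times. They do not show the wider spread at 96 h, where the SD of AT5G20790 was 1.70 (n = 3).

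**Figure D1:**
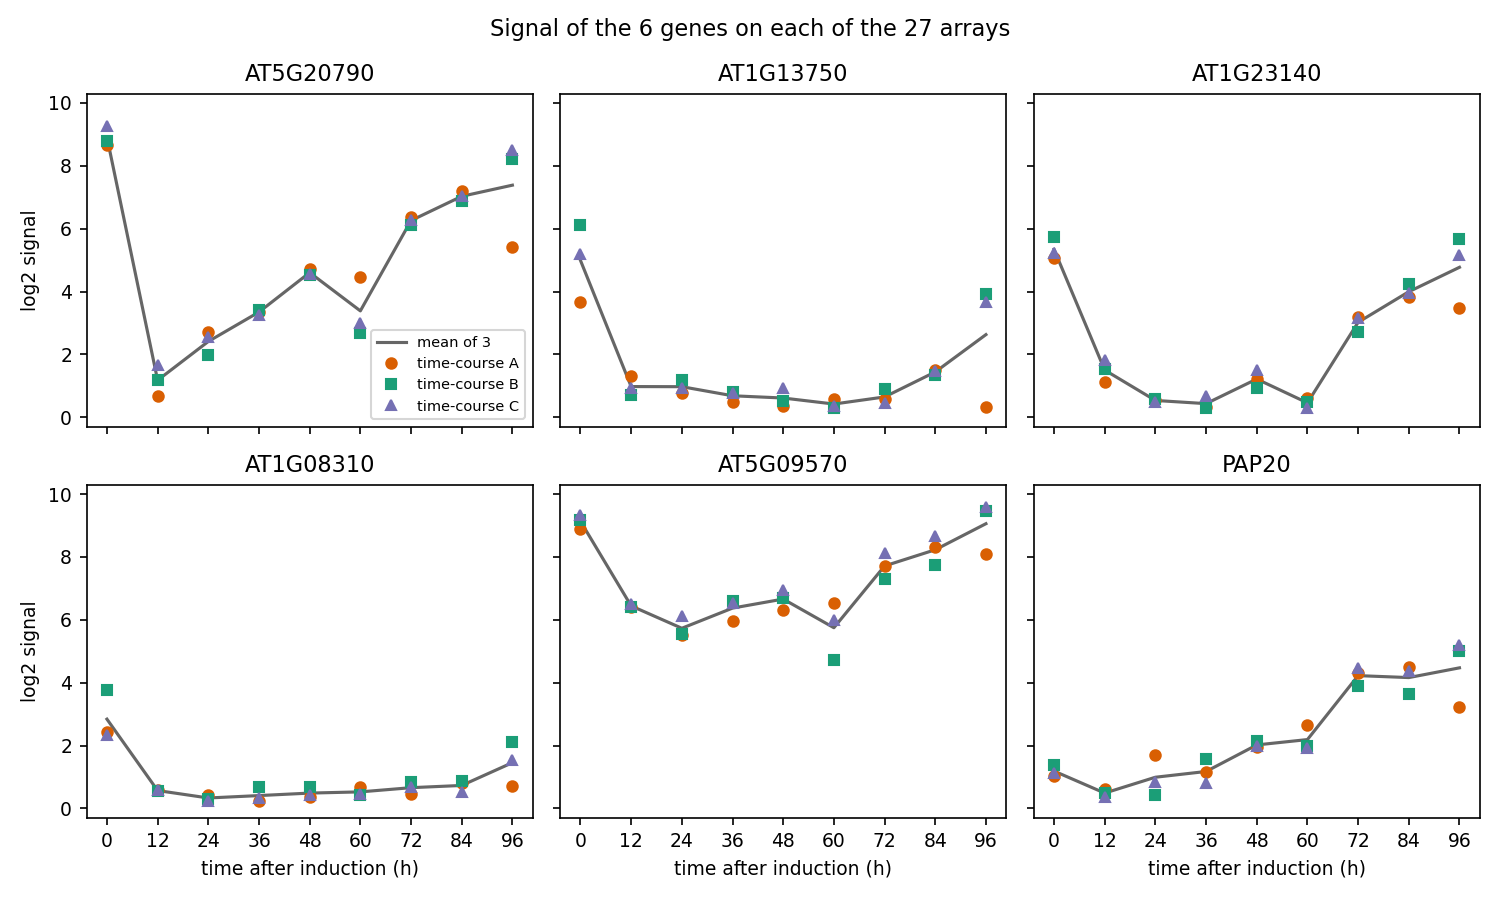
Log2 signal (vertical axis) of each of the 6 genes against time after induction in hours (horizontal axis), with a marker for each array of time-courses A, B and C and a line through the means of 3. The mean is highest at 0 h for the 5 genes other than PAP20, while PAP20 lies between 1.04 and 1.40 at 0 h and between 3.64 and 4.49 at 84 h.

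The acid phosphatase gene AT1G13750 stood at 1.30 in A, 0.70 in B and 0.92 in C at 12 h, against 3.66, 6.13 and 5.18 at 0 h, where the spread was wide. None of the 12 h arrays reached the lowest 0 h array. Unlike AT5G20790 it stayed there: the time means from 24 h to 72 h lay between 0.42 and 0.97, close to or below the array medians. At 84 h all 3 courses were slightly higher, at 1.51, 1.34 and 1.48. At 96 h B and C reached 3.91 and 3.65, while A was at 0.33, its lowest value of the course. The fitted differences were -4.01 ± 0.62 for 12 h against 0 h and 1.65 ± 0.62 for 96 h against 12 h (SE). The 96 h difference from 12 h was not called with all arrays. It was 2.97 and called without time-course A, and it was also called with the time-course as a block.

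PAP20, the other purple acid phosphatase gene, was low at the start and highest at the late times. It was at 0.61, 0.49 and 0.36 at 12 h, against 1.04, 1.40 and 1.12 at 0 h, low at both times. The arrays of 12 h and 0 h did not overlap, although the fitted difference was small, at -0.70 ± 0.39. Time means of 2.02 ± 0.10 at 48 h and 2.19 ± 0.41 at 60 h were followed by 4.22 ± 0.29 at 72 h, 4.16 ± 0.46 at 84 h and 4.47 ± 1.09 at 96 h (SD, n = 3). All 9 arrays from 72 h on lay above all 18 earlier ones, with the lowest at 3.21 (A at 96 h) and the highest earlier one at 2.67 (A at 60 h). The share of all probe sets that split in this way was not counted. The fitted difference of 96 h from 0 h was 3.28 ± 0.39 and that of 96 h from 12 h was 3.98 ± 0.39 (SE). The phosphatase genes differed in timing. AT1G13750 had 84 h and 96 h differences from 0 h of -3.55 ± 0.62 and -2.36 ± 0.62, against 2.97 ± 0.39 and 3.28 ± 0.39 for PAP20.

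In A, B and C the C2-domain gene AT1G23140 had signals of 1.13, 1.54 and 1.83 at 12 h, against 5.08, 5.72 and 5.22 at 0 h. It went on to near the floor, with time means of 0.53 ± 0.05 at 24 h, 0.43 ± 0.22 at 36 h and 0.46 ± 0.16 at 60 h, and 1.22 ± 0.28 between them at 48 h (SD, n = 3). At 72 h it was back at 3.20, 2.71 and 3.16. By 96 h B and C had nearly their 0 h signal, at 5.68 and 5.15, while A was at 3.48. The share of the drop from 0 h to the lowest point that was regained at 96 h, on the log2 scale, was 66.4% in A, 99.2% in B and 98.6% in C.

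AT5G09570, the mitochondrial cysteine-motif gene, stayed well above the array medians at all times. It was at 6.41, 6.40 and 6.52 at 12 h, against 8.90, 9.17 and 9.34 at 0 h, with the lowest time mean, 5.73 ± 0.34, at 24 h (SD, n = 3). At 60 h the courses spread out, with 6.54 in A, 4.73 in B and 5.98 in C, and the B array is among those with a high GAPDH difference. From 72 h on the signal was higher in each course than at 60 h. At 96 h it was 9.47 in B and 9.60 in C, both above their own 0 h arrays, and 8.11 in A, below its own.

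The alpha/beta hydrolase gene AT1G08310 was seen above the array medians at 0 h and, in B and C, at 96 h. At 12 h it was at 0.57, 0.56 and 0.57, against 2.43, 3.76 and 2.33 at 0 h. The time means from 24 h to 84 h lay between 0.33 and 0.73, which is below every array median. At 96 h it was at 0.70 in A, 2.12 in B and 1.55 in C. The 96 h difference from 12 h of 0.89 ± 0.30 (SE) was called, and the call was lost under 11 of 16 other settings.

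Across the 6 genes, limma called 5 lower at 12 h than at 0 h, where 8.67% of all probe sets were called lower. PAP20 was the exception, with -0.70. The 12 h and 0 h arrays did not overlap in any of the 6 genes, as in 28.2% of all probe sets. The same 5 genes were called lower at 24 h, 36 h, 48 h, 60 h and 72 h, where 6.77%, 7.55%, 6.71%, 7.86% and 4.22% of all probe sets were. PAP20 was called higher at 72 h, with 2.35% of all probe sets. The 72 h count of lower calls was 3 without time-course B and 1 without C, and the call of AT5G09570 there was lost under 7 of 17 other settings. At 84 h 4 were called lower and 1 higher (PAP20), with 4.14% and 2.17% of all probe sets. The lower calls at 84 h numbered 1 without time-course B or C and 2 to 3 with any single array of 0 h or 84 h left out. Those of AT5G20790 and AT1G23140 were lost under 9 and 7 of 17 other settings. At 96 h AT1G13750 and AT1G08310 were called lower and PAP20 higher, with 3.01% and 1.49% of all probe sets. At that time 1 gene was called lower without time-course A or B, and 0 without C or without the 96 h array of A, where the difference of AT1G13750 was -1.21. The call of AT1G13750 was lost under 7 of 17 other settings and that of AT1G08310 under 4 of 16. A fit to the 2 times alone called 0 of the 6 genes, PAP20 included. Against 12 h, 5 of the 6 genes were called higher at 96 h, all but AT1G13750, where 6.56% of all probe sets were called higher. Since the genes were chosen with these levels known, the counts describe the choice. The comparisons with 0 h share the same 0 h arrays. The median difference of the 6 genes was -3.27 at 12 h against 0 h and 2.94 at 96 h against 12 h, against 0.00 and 0.02 over all tested probe sets.

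**Figure D2:**
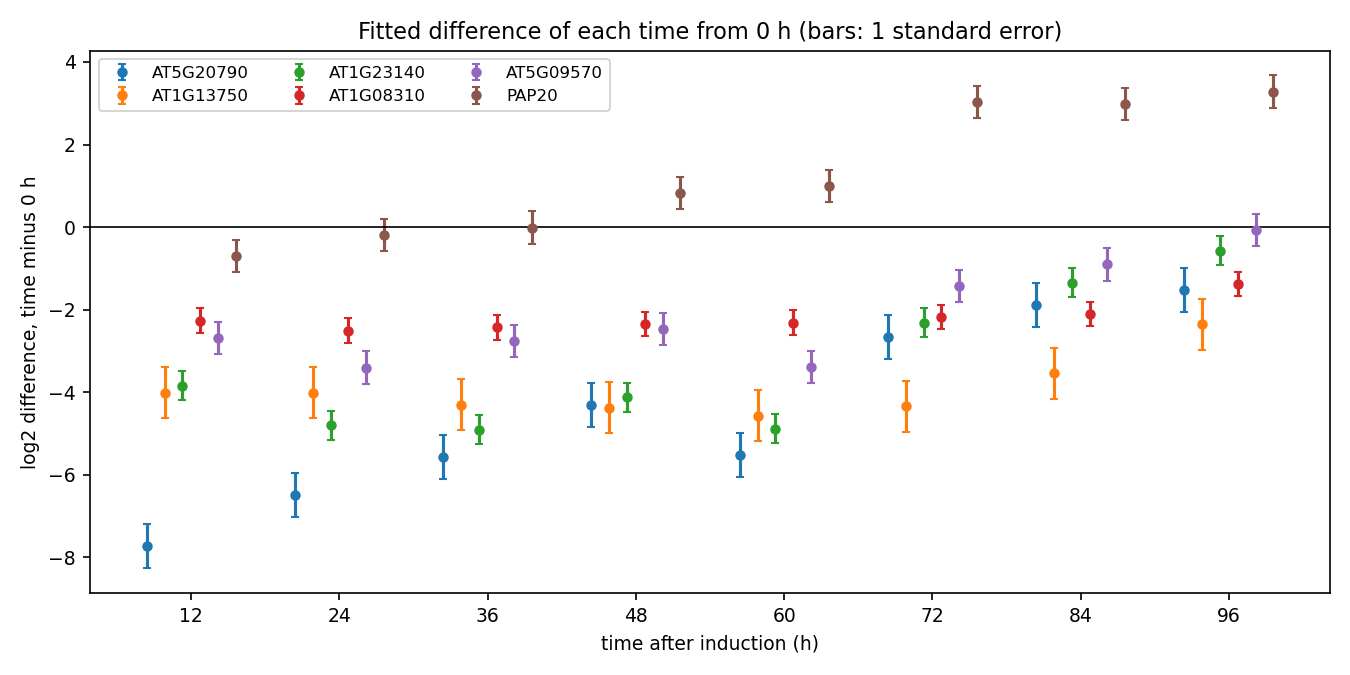
Fitted log2 difference of each time from 0 h (vertical axis) for the 6 genes at the 8 later times in hours (horizontal axis), with bars of 1 standard error. The bars of a gene are equal, since all times share 1 estimate of its spread. AT5G20790 lies at -7.74 at 12 h and at -1.53 at 96 h, AT1G13750 lies between -4.57 and -3.55 up to 84 h, and PAP20 crosses 0 and reaches 3.28.

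In the order of time means, 0 h was the highest time for AT5G20790, AT1G13750, AT1G23140, AT1G08310 and AT5G09570, and 96 h the next. For AT1G13750, AT1G23140 and AT5G09570 the 0 h and 96 h arrays overlapped, and for AT5G20790, AT1G08310 and PAP20 they did not, as in 15.3% of all probe sets. The lowest time was 12 h for AT5G20790 and PAP20, 24 h for AT1G08310 and AT5G09570, 36 h for AT1G23140 and 60 h for AT1G13750. AT5G20790 had the clearest ladder: of the 8 pairs of times next to each other in its order, 2 had overlapping arrays, 96 h with 84 h and 60 h with 36 h. PAP20 had 6 overlapping pairs and AT1G23140 5, while AT1G13750, AT1G08310 and AT5G09570 had 7 each. For AT1G13750 the sole gap was between 84 h and 12 h, and for AT1G08310 between 0 h and 96 h. Both of these genes lay near the floor at most times, which leaves little room for gaps. The orders were made from these same arrays, and overlapping pairs were not counted over all probe sets.

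Some of the genes had like profiles, which is a description, since they were chosen with their levels known. Over the 27 arrays, which share time-courses, Pearson's r was 0.95 between AT1G23140 and AT5G09570 and 0.94 between AT1G13750 and AT1G08310. AT5G20790 had r of 0.90 with AT5G09570 and 0.89 with AT1G23140, against 0.70 with AT1G13750 and 0.72 with AT1G08310. PAP20 had r of 0.62 with AT5G20790, and of 0.06 and 0.08 with AT1G13750 and AT1G08310. AT1G13750 and AT1G08310 were near the floor from 12 h to 72 h, so r between these genes rests largely on the 0 h and 96 h arrays. AT5G20790, AT1G23140 and AT5G09570 stood higher at 72 h than at 12 h in all 3 courses, while AT1G13750 and AT1G08310 stayed low until 84 h.

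Between 84 h and 96 h the time-courses parted in all 6 genes. The 96 h minus 84 h difference of AT5G20790 was -1.76 in A, 1.34 in B and 1.48 in C, and that of AT1G13750 was -1.18, 2.57 and 2.17. PAP20 had -1.28, 1.38 and 0.83, and AT1G23140 -0.33, 1.45 and 1.21. In AT5G09570 the differences were -0.20, 1.74 and 0.95, and in AT1G08310 -0.10, 1.25 and 1.03. Every gene was lower at 96 h than at 84 h in A and higher in B and C, a combination that 18.5% of all probe sets had. The GAPDH difference at 96 h was 1.65 in A, 2.99 in B and 1.41 in C, and its part in these values was not tested. The courses also parted at 96 h in the 9 measured tracheary element and wall markers, each of them highest in A. AT4G18425 stood at 6.13, 0.34 and 0.55 in A, B and C, and PRX52 at 4.88, 3.79 and 4.37. The array medians at 96 h were 0.95 in A, 0.92 in B and 0.88 in C, with 804, 334 and 549 values at 0. Their part in this order was not tested. How many of all probe sets were highest in A at 96 h was not counted, and a link to the 6 genes was not tested. At 0 h A had the lowest array of the 3 for each of the 6 genes other than AT1G08310, an order not counted over all probe sets. The median of that array was also the lowest of the 3, at 0.91, against 0.99 in B and 0.93 in C.

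**Figure D3:**
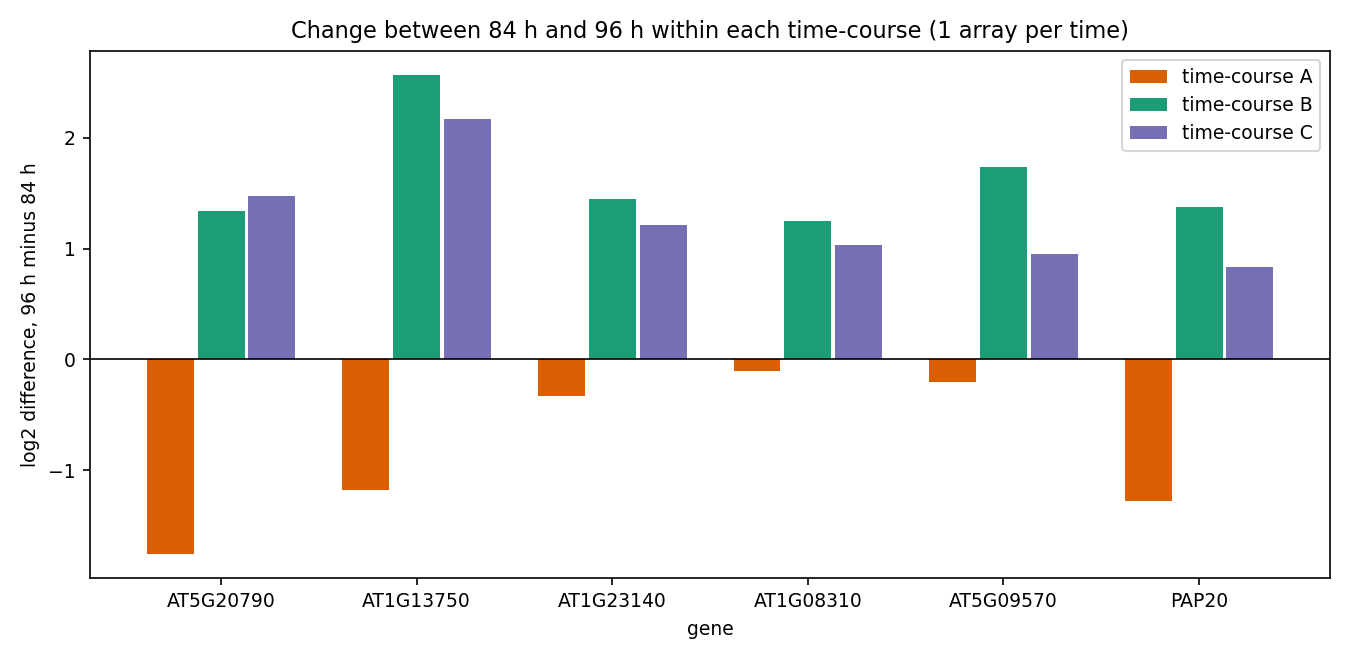
Log2 difference of 96 h minus 84 h (vertical axis) for each of the 6 genes (horizontal axis), with a bar for each time-course, each from 1 array per time. The bars of A lie between -1.76 and -0.10, and those of B and C between 0.83 and 2.57.

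A dip at 60 h, where the labels place the start of wall deposition, was seen in AT5G20790 and AT1G23140 in all 3 time-courses. The 60 h minus 48 h difference of AT5G20790 was -0.28 in A, -1.83 in B and -1.54 in C. The differences of AT1G23140 were -0.62, -0.44 and -1.21. AT5G09570 had -1.98 in B and -0.98 in C but 0.22 in A. Of all probe sets 17.9% were lower at 60 h than at 48 h in all 3 courses. From 60 h to 72 h AT5G20790 was higher by 1.93, 3.43 and 3.26, AT1G23140 by 2.60, 2.22 and 2.87, and PAP20 by 1.65, 1.91 and 2.55. In all 5 genes apart from AT1G08310 the 72 h array lay above the 60 h array of its own course, as in 17.9% of all probe sets. For AT1G13750 these steps were only 0.002 in A, 0.59 in B and 0.08 in C, near the floor.

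The remaining genes of the phosphate pathway were taken from 5 lists of 111 genes, of which 9 could be assigned a probe set of their own. The annotation used did not list 8729 of the tested probe sets, so most transporters, SPX genes and lipid enzymes were not analysed here. At 12 h against 0 h, 1 of the 9 rose and 2 fell, with 8.48% and 8.67% of all probe sets called in these directions. Their median difference was 0.12, against 0.00 over all probe sets. At 96 h against 12 h 0 of the 9 rose and 3 fell, with 6.56% and 8.62% of all probe sets, and the median was -0.04 against 0.02. At 96 h against 0 h 0 rose and 3 fell, with 1.49% and 3.01% of all probe sets, and the median was -0.42 against 0.01. Regulators made up 6 of the 9 genes.

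Among the regulators, WRKY6, a transcription factor that represses the phosphate export gene PHO1, rose at 12 h. It stood at 5.83, 5.09 and 4.67 in A, B and C at 12 h, against 0.77, 1.25 and 1.13 at 0 h, a difference of 4.15 ± 0.44 (SE; adjusted p = 5.92e-07 by limma). By 24 h it was back at 1.22 ± 0.31 (SD, n = 3), and at 96 h it had fallen by 2.72 (SE 0.44) relative to 12 h (adjusted p = 1.27e-04 by limma). With the time-course as a block it was also called higher at 96 h than at 0 h (adjusted p = 0.0439 by limma). LPR2, a multicopper oxidase that arrests root growth when phosphate is low, differed by 0.46 ± 0.33 at 12 h, which was not called, and then fell, by 2.91 (SE 0.33) at 48 h against 0 h (adjusted p = 3.23e-06 by limma). Its 96 h difference from 0 h was -1.94 ± 0.33 (adjusted p = 8.38e-04 by limma). The 96 h call was lost without time-course B (adjusted p = 0.085 by limma). LPR1, its close relative, had fallen at 36 h, 48 h, 60 h and 72 h, with differences from -1.20 to -1.06, all of them calls that were lost without time-course B or C. Its signal in A, B and C was 0.50, 1.46 and 2.64 at 0 h and 0.28, 0.12 and 0.60 at 48 h, so A was near the floor throughout. WRKY42, another repressor of PHO1, the SUMO ligase gene SIZ1 and AT5G15070, a kinase gene of inositol pyrophosphate synthesis, were called in none of the 9 comparisons and were named after their values were seen. Their differences from 0 h lay between -0.84 (SIZ1 at 60 h) and 0.31 (SIZ1 at 12 h).

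AT1G63010, which encodes a vacuolar phosphate transporter, was the sole gene of phosphate transport with a named probe set here. Its signal was 5.66, 6.57 and 6.48 at 12 h, against 6.10, 6.16 and 5.79 at 0 h, and these arrays overlapped. At 24 h it had fallen to 3.10, 3.71 and 3.40, a difference from 0 h of -2.61 ± 0.34 (SE; adjusted p = 1.77e-05 by limma). The difference from 0 h at 96 h was -1.71 ± 0.34 (adjusted p = 0.00402 by limma), a call lost without time-course C (adjusted p = 0.12).

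AT1G25230, another purple acid phosphatase gene on the arrays, fell at 12 h as AT1G13750 did. Its signal was 0.39, 0.22 and 0.29 at 12 h, against 3.42, 2.72 and 4.18 at 0 h, a difference of -3.14 ± 0.43 (SE; adjusted p = 1.75e-05 by limma). The call held under all 17 other settings. At 96 h it was at 2.63 in A, 0.39 in B and 0.33 in C, so here A was the high course, where it had been the low course for each of the 6 genes. The 96 h difference from 0 h was -2.32 ± 0.43 (adjusted p = 0.00224 by limma), and it was lost without time-course B (adjusted p = 0.0718) or C (adjusted p = 0.288). AT4G29260, an acid phosphatase gene of another family, fell at 12 h by 1.14 (SE 0.38; adjusted p = 0.0409 by limma), a call lost under 10 of 17 other settings, with adjusted p up to 0.187. By 24 h its signal was 3.48 ± 0.08, against 3.51 ± 0.20 at 0 h (SD, n = 3). With the time-course as a block it was called higher at 96 h than at 12 h (adjusted p = 0.0337 by limma).

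**Figure D4:**
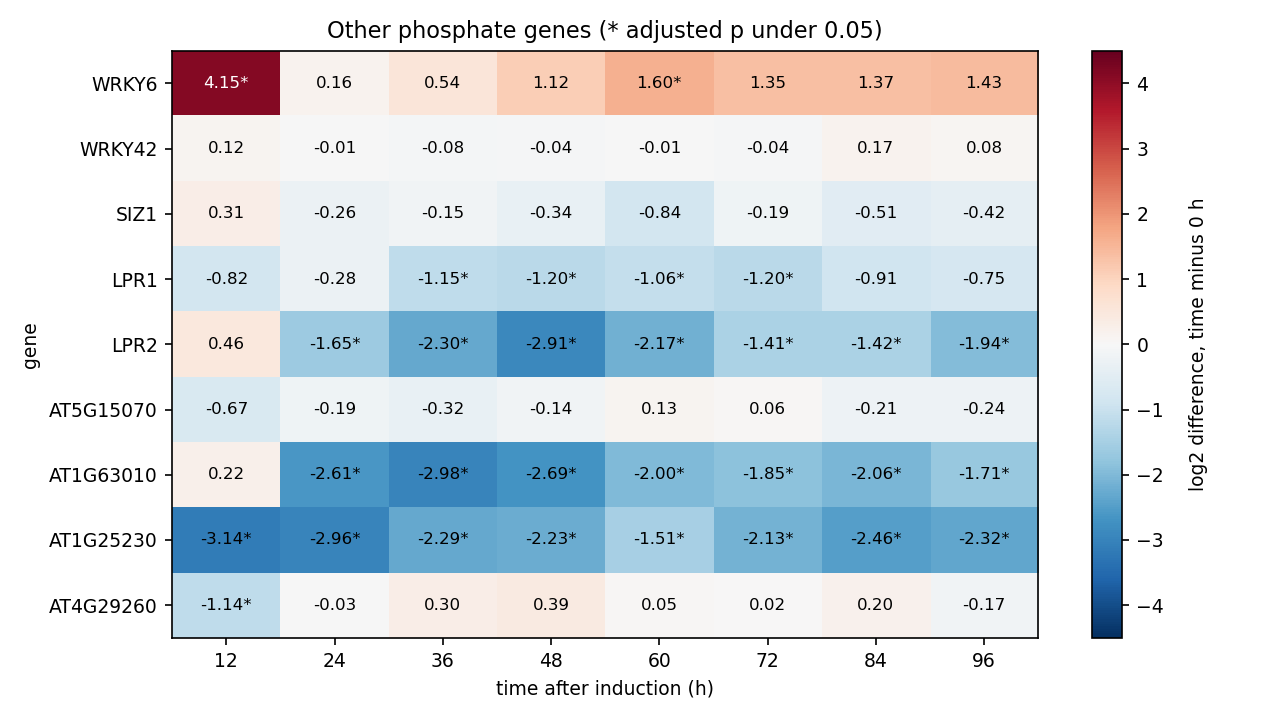
Fitted log2 difference from 0 h (colour and printed value) of the 9 other measured phosphate genes (rows) at the 8 later times in hours (columns), with a star where the adjusted p is under 0.05. WRKY6 is up at 12 h at 4.15, AT1G25230 is down at all 8 times, and LPR2 and AT1G63010 are down from 24 h on.

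Relatives of 2 of the genes were measured as well. Of the other 9 genes of the C2-domain family to which AT1G23140 belongs, 5 were assigned a probe set, of which 1 rose and 1 fell at 12 h, with 8.48% and 8.67% of all probe sets. AT1G70790 fell by 1.58 (SE 0.26) at 12 h and was 1.23 ± 0.26 above its 12 h level at 96 h (adjusted p = 1.50e-04 and 0.00203 by limma), and the 96 h call was lost without time-course C (adjusted p = 0.131). AT1G70810 rose by 2.84 ± 0.64 at 12 h, with adjusted p = 0.00265 by limma, and lost this call without time-course B (adjusted p = 0.166) or C (adjusted p = 0.22). Its signal in A, B and C was 0.58, 4.57 and 4.85 at 12 h, against 0.35, 0.62 and 0.50 at 0 h, so the rise lay in B and C. AT5G37740 and AT1G66360 differed by 0.08 ± 0.28 and 0.00 ± 0.09 at 12 h and were not called. At 96 h against 12 h 1 of the 5 relatives rose and 2 fell, with 6.56% and 8.62% of all probe sets. The median was -0.61, against 0.02 over all probe sets. AT1G70810 and AT2G01540 were those that fell, and both calls were lost without time-course C. Of 7 other measured genes known to respond to disturbed mitochondria, 6 rose at 12 h and 0 fell (median 1.83, against 0.00 over all probe sets), with 8.48% and 8.67% of all probe sets called in these directions. AT2G21640, AT2G04050 and AT5G51440 lost their calls both without time-course B and without C, which left 3. At 12 h AT5G09570 was 2.69 lower than at 0 h (-2.69 ± 0.39). GSTU25 rose by 7.14 ± 1.00, AT2G41730 by 4.32 ± 0.52, the alternative NADH dehydrogenase gene NDB2 by 3.79 ± 0.29 and AT2G21640 by 1.83 ± 0.41, with adjusted p of at most 0.00264 by limma. Without time-course B or C the adjusted p of AT2G21640 was 0.145 or 0.115 by limma. AT5G64400, the close relative of AT5G09570 and named after its values were seen, stood at 9.67 at 12 h and 9.98 at 0 h, a difference of -0.31 ± 0.18 that was not called (adjusted p = 0.327 by limma). It was called lower at 12 h without the 5 arrays of high GAPDH difference (adjusted p = 0.00199 by limma) and without time-course B (adjusted p = 0.0126).

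The genes with the most similar signal over the 27 arrays were sought among 13278 other genes. AT2G42690 came up for AT5G20790, AT1G23140 and AT5G09570, with Pearson's r of 0.94, 0.95 and 0.94, and its time means were 5.57 at 0 h, 0.71 at 12 h and 4.86 at 96 h. AT5G66180 and AT5G25240 were the other nearest genes of AT5G20790 (both 0.94). AT3G03150 (0.96) and AT3G44510 (0.94) were those of AT1G23140, and AT5G17340 (0.95) and AT2G37890 (0.93) those of AT5G09570. For AT1G13750 the nearest was OCT1, an organic cation transporter gene (0.96), then AT3G43110 (0.96) and ATSPS4F, a sucrose-phosphate synthase gene (0.95). ATSPS4F was also near AT1G08310 (0.95), together with AT3G61410 (0.96) and AT1G72070 (0.95). PAP20 had AT2G28690 (0.91), AT2G28680 (0.91) and the peroxidase gene AT3G49960 (0.87). These values describe the arrays, and the arrays share time-courses.

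Genes of cell division were low at 12 h as well. All 3 named division markers of 10 listed, the Aurora kinase genes AUR1 and AUR2 and the replication gene PRL, fell at 12 h against 0 h, where 8.67% of all probe sets did, and are named after their values were seen. Their mean signals lay between 1.85 and 2.07 at 12 h, against 3.20 to 5.20 at 0 h. At 24 h PRL was called higher than at 0 h, with a mean of 3.87 against 3.20, and AUR1 and AUR2 were still called lower. At 36 h AUR2 was at 4.48, against 4.73 at 0 h. From 36 h to 96 h limma called 0 of the 3 against 0 h (unadjusted p under 0.05 for AUR1 at 60 h), while 5 of the phosphate genes were still called lower at 36 h. All 3 were called higher at 96 h than at 12 h, where 6.56% of all probe sets were. PRL lost both its 12 h call and this one without time-course C (adjusted p = 0.0514 and 0.132 by limma). Their part in the levels of the phosphate genes was not tested. The call of 5 lower genes at 12 h was the same without the 5 arrays of high GAPDH difference and without each time-course in turn. Without time-course B or C, or without those 5 arrays, 4 of the 6 genes were called higher at 96 h than at 12 h, against 5 with all arrays and 6 without time-course A.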

How the data were processed

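The deposited table holds log2 signals of 27 arrays, made by the authors with RMA, per the submitters' processing notes. RMA's version, the logarithm's base and why values stop at 0 were not given in the sources used here. Base 2 was taken from the range of values. Of 22810 probe sets, 64 controls were dropped, as were 3 that lacked a value. Probe sets were named through a platform annotation of 14016 probe sets and RefSeq gene names (assembly TAIR10.1), and 13434 tested probe sets matched 1 gene. For a gene with several, the one with the highest mean was used. limma 3.58.1 in R 4.3.3 fitted 1 mean per time to all arrays, and calls are Benjamini-Hochberg adjusted p under 0.05 over all probe sets. The 6 genes and the gene lists were chosen with earlier results of these data known. List genes named are those called, up to 12, and up to 4 per family by size at 12 h, with the 3 nearest profiles per gene. The other lists covered tracheary element and division markers and nitrate, sulfur, iron and sugar responses.

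Samples of 1 letter are paired, since each letter stands for a time-course of its own in the series' design. The median correlation of their deviations from time means was 0.25 over 108 same-letter pairs and -0.12 over 216 pairs sharing neither letter nor time. Deviations from a time mean cancel within that time, so the second value largely follows from the first and is no separate baseline. The time-courses are called independent in the design text. Alternatives were the letter as a block, other scalings, array weights, a filter on low means, arrays or time-courses left out, fits to 2 times, and the GAPDH difference as a covariate. Leaving out its 5 high arrays was chosen after seeing the data.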

Additional observations from a re-analysis of the deposited data

Results flagged for a closer look

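PAP20 was set apart because its difference from 0 h had opposite signs at 2 times in every time-course. It averaged -0.70 at 12 h and 3.28 at 96 h against 0 h, below 0 h in 3 of 3 courses at 12 h and above it in 3 of 3 at 96 h. The 12 h difference was not called with all arrays, and the 12 h signals, 0.36 to 0.61, lay below every array median. How many of all probe sets had such a change of sign was not counted. The contrast of these differences was not tested.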

How the results depend on the processing

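With the letter as a block, which the pairing calls for, the count called at 96 h against 0 h was 1554, against 1025 without it. The block changed no other count of calls across all probe sets by over 1.5 times, but it raised each of them. With it 4963 were called at 12 h, 3956 at 24 h, 4295 at 36 h (3075 without it) and 3729 at 48 h. At 60 h, 72 h and 84 h it gave 3868, 2142 and 2088, and 4460 at 96 h against 12 h. Calls and SEs in the text are from the fit without the block unless stated. Array weights gave 4248, 4032, 2570 and 2833 calls at 24 h, 48 h, 72 h and 84 h against 0 h, against 2776, 2660, 1494 and 1434, and 5 rather than 3 of the 9 phosphate genes at 96 h against 12 h. The GAPDH covariate gave 2266, 2210 and 1677 calls at 72 h, 84 h and 96 h. Fits to the 2 compared times alone gave 2243 calls at 12 h (3900 with all arrays), 973 at 60 h (3008), 763 at 72 h, 659 at 84 h and 31 at 96 h against 0 h, and 1531 at 96 h against 12 h (3452), with 0 of the 9 phosphate genes at 96 h against 0 h. Each of these fits holds the arrays of its 2 times alone, and the cause of the lower counts was not tested. Leaving out a time-course or an array gave 1563 to 4121 calls at 12 h, 777 to 3021 at 24 h, 843 to 3390 at 36 h and 678 to 2919 at 48 h. It gave 776 to 3275 at 60 h, 256 to 1931 at 72 h, 234 to 1731 at 84 h, 259 to 1158 at 96 h, and 1278 to 3750 at 96 h against 12 h. Among the 9 phosphate genes it gave 2 to 4 calls at 12 h, 1 to 4 at 96 h against 0 h and 2 to 4 at 96 h against 12 h. Of the 6 genes' differences from 0 h at 12 h and 96 h, and from 12 h at 96 h, those of AT1G23140 (-1.03 to 0.07) and AT5G09570 (-0.35 to 0.40) between 96 h and 0 h crossed 0, neither of them called with all arrays. The rest kept their sign. The difference of AT1G13750 from 0 h at 96 h ran from -3.03 to -1.21. Signals near the floor limit the differences of AT1G13750, AT1G08310, AT1G23140 and PAP20.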

Other observations

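Few genes of other nutrient responses had a named probe set. Of the nitrate, sulfur and iron lists 2, 2 and 3 genes had one, and of the 11 sugar starvation genes 0. At 12 h against 0 h, limma called 0 nitrate and 0 iron genes, and 1 of these 5, NRT2.5, had an unadjusted p under 0.05. With the time-course as a block NRT2.5 was called higher at 12 h (0.78, adjusted p = 0.0334 by limma). BGLU28, a glucosidase gene of the sulfur list named after its values were seen, rose by 6.09 ± 0.58 (SE, n = 3) at 12 h (adjusted p = 1.49e-07) and was 3.85 lower at 96 h than at 12 h (-3.85 ± 0.58), a call lost without time-course C (adjusted p = 0.054 by limma). The other sulfur gene, AT1G04770, stood at 2.37 at 12 h and 2.19 at 0 h and was not called.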
